A study of Drosophila melanogaster with 59 samples.

Results

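The mir-959 cluster of Drosophila melanogaster is a group of 6 miRNA hairpins, mir-959, mir-960, mir-961, mir-962, mir-963 and mir-964, that lie side by side on chromosome arm 2L. The 6 hairpins were found by name in the deposited tables of small RNA counts and are 6 of the 256 hairpins listed there. Their levels are given as CPM, the count of a hairpin per 1 M of all hairpin counts in a library. A miRNA is cut from the stem of such a hairpin by Drosha and then by Dicer, and guides an Argonaute protein to messenger RNAs that are then repressed. Hairpins that lie close together on 1 strand are often made from 1 long primary transcript. In flies the mir-959 cluster is known as rich in testis, and in adult heads its primary transcript is known to rise and fall over the day in the fat body under the control of the circadian clock and of feeding time.

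Small RNA of 18 to 30 nt was sequenced from heads of 4-day-old adult males and from unfertilized eggs. Each of 4 lines gave 2 libraries for either tissue. All 4 lines carry the w1118 allele of white in an Oregon-R strain background. The line called w1118 has no transgene. Fab2L carries the Fab2L transgenic insertion, and White* and Red* are Fab2L flies kept as separate lines with that insertion. The White* and Red* lines differ from each other by eye colour and not by a labelled allele, and the study asked whether such states are inherited. The labels tie the 2 libraries of a line to no separate cultures, so a p-value covers only how far such libraries differ, and that spread can be technical. The labels used here give no hour of collection, and no testis library was analysed here.

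Depth differed between the tissues. Hairpin counts summed to 12.0 to 20.2 M per head library and to 0.270 to 1.14 M per egg library. The tissue labels were checked in the long RNA libraries of the same lines, in FPKM (fragments per kilobase of gene and 1 M reads). The summed level of elav, nSyb, ninaE and trp, markers of neurons and photoreceptors, was 8201 to 11900 FPKM in heads and 0.841 to 7.49 FPKM in eggs, and that of the maternal genes osk, nanos, bcd and pgc was 0.809 to 1.58 FPKM in heads and 1095 to 1383 FPKM in eggs. The extraction text of the egg libraries names male heads, but these levels follow the titles. The long RNA library w1118 replicate 2 from heads stood apart from the other 7 head libraries in several clock genes, described with those genes.

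The 6 hairpins span 1262 bp of the dm6 assembly (2L:5640940-5642201, positions from RefSeq), and all 6 are on the + strand in the row names. They form a block of 4 and a block of 2. The gaps between mir-959 (2L:5640940-5641037), mir-960 (2L:5641063-5641155), mir-961 (2L:5641191-5641279) and mir-962 (2L:5641298-5641389) are 25, 35 and 18 bp. A gap of 600 bp then leads to mir-963 (2L:5641990-5642078), which is 23 bp from mir-964 (2L:5642102-5642201). The whole cluster lies within the span of DIP-theta (2L:5626291-5658560), a gene of the immunoglobulin superfamily, and the annotation used here does not say whether it falls in an exon or an intron, nor on which strand DIP-theta lies. The mature sequences were not used here.

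In male heads the cluster was higher in w1118 than in the 3 transgene lines. Its summed level was 17.1 and 16.6 CPM in the 2 w1118 libraries, against 3.91 and 4.47 CPM in Fab2L, 4.39 and 6.37 CPM in White* and 3.41 and 4.12 CPM in Red*. The lines thus ordered as w1118 (16.9 ± 0.390 CPM, SD, n = 2), White* (5.38 ± 1.40 CPM), Fab2L (4.19 ± 0.397 CPM) and Red* (3.76 ± 0.505 CPM). Between neighbours in this order, White* and Fab2L overlapped in their libraries, as did Fab2L and Red*, while the gap from w1118 to White* exceeded the spread of both. The mean of the 2 w1118 libraries was 3.79 times that of the other 6.

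These levels rest on few reads. The cluster had 206 and 250 counts in the w1118 libraries and 56 to 83 in the other 6 head libraries. The median hairpin had a mean of 2.32 CPM over the 8 head libraries, and mir-960 alone of the 6 lay above it, at 3.12 CPM and rank 120 of 256. The others had ranks 140 (mir-959), 143 (mir-961), 156 (mir-963), 164 (mir-962) and 178 (mir-964). A count of 0 in a head library allows up to 0.148 to 0.250 CPM, taking 3 counts as the limit, and this limit and all intervals given cover counting error only.

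mir-960 was the most abundant member and had the highest ratio of the w1118 mean to that of the other 6 libraries, 5.64. Its level was 8.82 and 7.50 CPM in w1118, 1.39 and 1.39 CPM in Fab2L, 1.82 and 2.07 CPM in White*, and 1.28 and 0.730 CPM in Red*, from 106 and 113 counts in w1118 and 14 to 28 in the others. The lowest w1118 library was thus far above the highest of the other 6. edgeR's quasi-likelihood test over all hairpins gave a log2 fold change of -2.45 in Fab2L (SE 0.26, adjusted p = 0.000543), of -2.05 in White* (SE 0.26, adjusted p = 0.00132) and of -3.02 in Red* (SE 0.27, adjusted p = 0.000229), each against w1118. The 3 comparisons share the 2 w1118 libraries and are not independent of each other.

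mir-961 had nearly the level of mir-959 in w1118 and also separated the lines. It stood at 2.75 and 2.85 CPM in w1118, 0.445 and 0.966 CPM in Fab2L, 0.303 and 0.614 CPM in White*, and 0.365 and 1.10 CPM in Red*. In White* it fell by 2.59 on the log2 scale (SE 0.58, edgeR adjusted p = 0.0329), and the call was lost whichever of the 4 libraries was left out (-2.10 to -3.16, adjusted p 0.105 to 0.199). In Fab2L its log2 fold change was -1.92 (SE 0.52, edgeR adjusted p = 0.0576) and in Red* it was -1.89 (SE 0.51, edgeR adjusted p = 0.0548), both short of the threshold of 0.05. These calls turn on the settings: with no filter on low counts mir-961 passed in both lines (adjusted p = 0.0301 and 0.0269), and without Red* replicate 2 it passed in Red* at -2.93 (adjusted p = 0.0252). Without Red* replicate 1 its value there was -1.34.

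mir-959, the first hairpin of the block, stood at 2.75 and 2.99 CPM in w1118, 1.09 and 0.845 CPM in Fab2L, 1.06 and 1.54 CPM in White*, and 0.426 and 1.36 CPM in Red*. Both w1118 libraries were above the other 6, but no comparison passed. Its log2 fold change was -1.46 in Fab2L (SE 0.44, edgeR adjusted p = 0.0780), -1.14 in White* (SE 0.45, edgeR adjusted p = 0.145) and -1.64 in Red* (SE 0.45, edgeR adjusted p = 0.0563). The 2 Red* libraries, with 7 and 26 counts, were the farthest apart of any line. Without Red* replicate 2 mir-959 passed in Red* at -2.75 (edgeR adjusted p = 0.0112), and without Red* replicate 1 its value was -1.07. With no filter on low counts it passed in Fab2L and Red* (adjusted p = 0.0397 and 0.0269).

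mir-963 and mir-964, the block of 2, were lower still. mir-963 stood at 1.17 and 2.06 CPM in w1118 and between 0.209 and 0.921 CPM in the other 6 libraries, with a median of 0.470 CPM there. Its log2 fold changes of -1.71 in Fab2L, -1.32 in White* and -1.92 in Red* had SEs of 0.59 to 0.60 and edgeR adjusted p-values of 0.0910, 0.200 and 0.0918. Leaving out 1 library moved them to between -1.18 and -2.03 in Fab2L, -0.75 and -2.07 in White*, and -1.31 and -2.93 in Red*. mir-964 had 9 counts in each w1118 library and 1 to 8 in the other 6. It did not pass the filter on low counts and was not tested. Its 2 w1118 libraries, at 0.749 and 0.597 CPM, were above the range of 0.0608 to 0.417 CPM of the other 6.

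mir-962 was the member whose lines overlapped. It stood at 0.915 and 0.597 CPM in w1118, 0.297 and 0.604 CPM in Fab2L, 0.681 and 0.845 CPM in White*, and 0.608 and 0.313 CPM in Red*. The White* libraries lay within the w1118 range, and the mean of w1118 was 1.36 times that of the other 6. Its log2 fold changes were -0.66 in Fab2L (SE 0.52), 0.04 in White* (SE 0.50) and -0.70 in Red* (SE 0.52), with edgeR adjusted p-values of 0.457, 0.942 and 0.454.

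**Figure D1:**
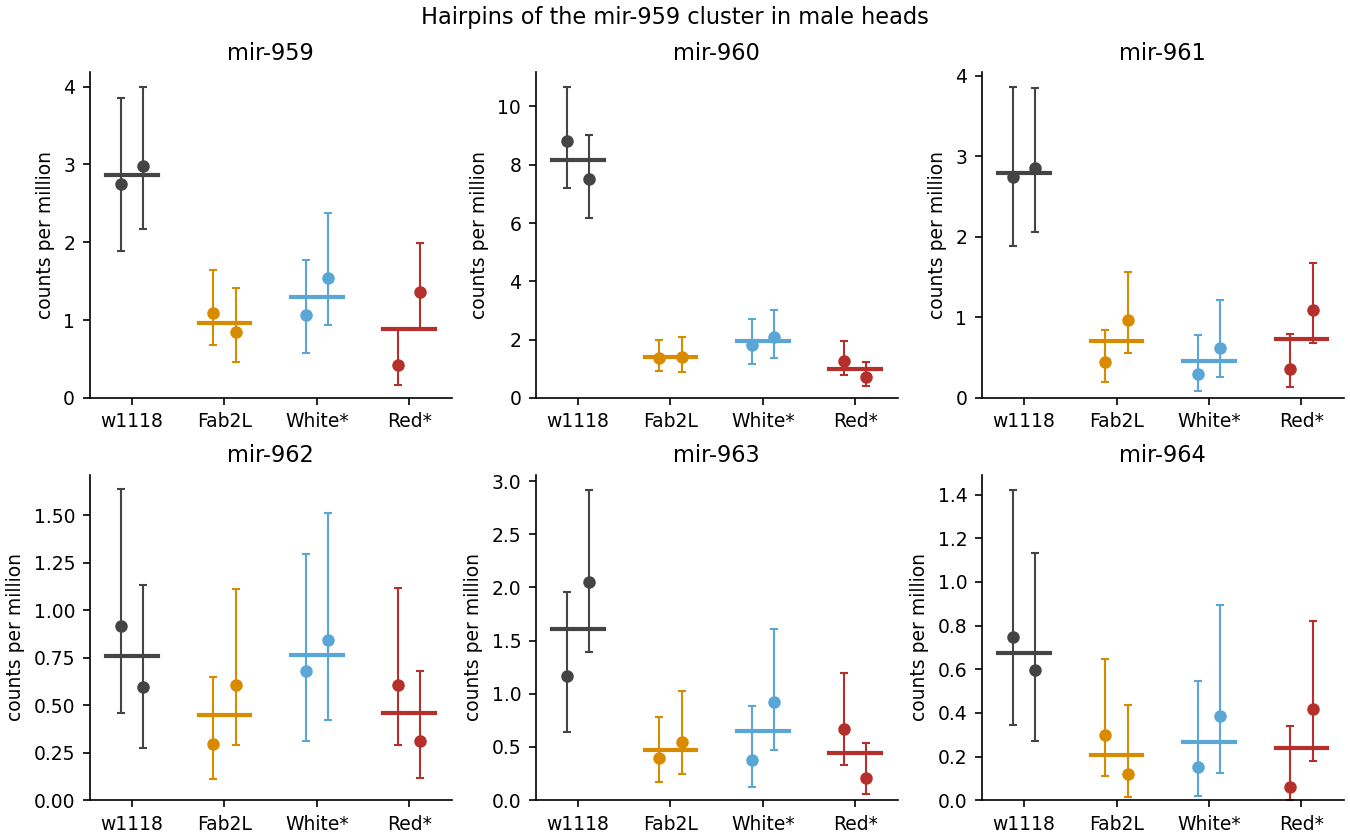
Level of each of the 6 hairpins in the 8 head libraries, in CPM on the y axis and grouped by line on the x axis, with line means as horizontal bars and exact 95% Poisson intervals of the counts as error bars. For mir-959, mir-960, mir-961, mir-963 and mir-964 both w1118 points lie above the 6 points of the other lines, while for mir-962 the points overlap.

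Both w1118 libraries lay above the other 6 for 5 of the 6 members, and for 4 of the 5 that could be tested. Among all 172 hairpins that passed the filter on low counts the same separation held for 25, or 14.5%. A test over all 4 lines, also in edgeR, called 2 of the 5 tested members, mir-960 (adjusted p = 0.000366) and mir-961 (adjusted p = 0.0479), against 12.2% of the 172 hairpins tested. Of the 5 tested members, 1 was called lower in Fab2L than in w1118 (mir-960), against 4.65% of all hairpins tested. In Red*, 1 was called lower (mir-960), against 5.81%, and in White* 2 were (mir-960 and mir-961), against 6.4%. No member was called higher in Fab2L, Red* or White*, where 4.07%, 4.07% and 2.91% of all hairpins were. At an unadjusted p below 0.05 the counts in Fab2L, Red* and White* were 4, 4 and 3 of 5, where 30.2%, 22.7% and 27.3% of all hairpins tested were under it. The median log2 fold change of the 5 members was -1.71 in Fab2L, -1.89 in Red* and -1.32 in White*, where the medians of all hairpins tested were 0.01, 0.01 and 0.02. The members share a locus and are not separate replicates of a line difference.

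**Figure D2:**
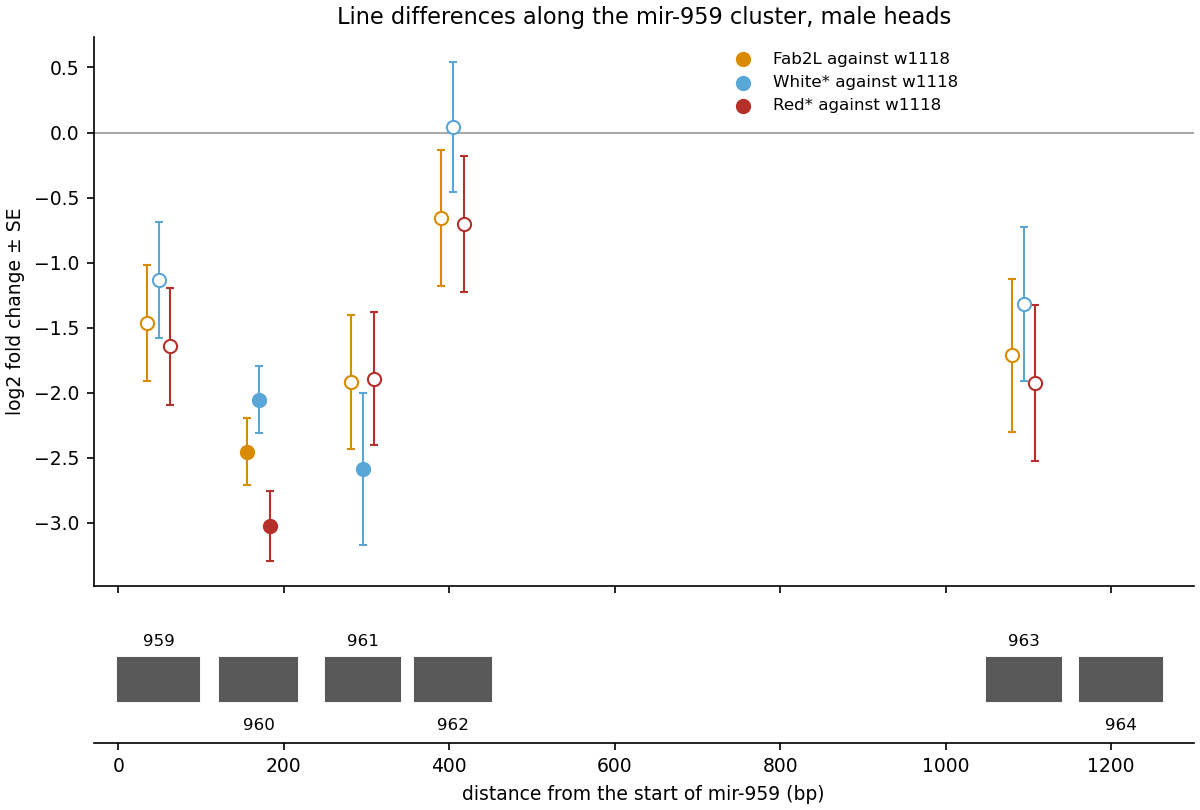
Log2 fold change against w1118 with its SE (y axis) for the 5 tested hairpins, drawn at their place along the cluster (x axis, bp from the start of mir-959), with the 6 hairpins as boxes underneath. Filled points have an edgeR adjusted p below 0.05, and these are mir-960 in all 3 lines and mir-961 in White*, while mir-962, in the same block as both, lies nearest to 0.

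Within the cluster, the share of mir-960 was highest in w1118 and that of mir-962 lowest there. mir-960 made up 48.0% of the summed cluster counts of w1118 (95% Clopper-Pearson interval 43.4 to 52.7%), 33.3% in Fab2L (25.9 to 41.4%), 36.2% in White* (28.3 to 44.7%) and 25.9% in Red* (18.8 to 34.2%). The interval of w1118 lay above those of Fab2L and Red* and overlapped that of White*. By library the share was 51.5 and 45.2% in w1118, 31.1 to 41.4% in Fab2L and White*, and 37.5 and 17.7% in Red*. Both Red* values lie outside the interval of that line, which covers counting error only. mir-962 made up 4.39% in w1118 (2.70 to 6.69%), 10.5% in Fab2L (6.10 to 16.4%), 14.2% in White* (8.89 to 21.1%) and 11.9% in Red* (6.93 to 18.5%). The shares of mir-959 ran from 17.1% in w1118 to 24.4% in Red*, and those of mir-963 from 9.87 to 12.1%, with overlapping intervals in all 4 lines. These shares pool the 2 libraries of a line, and no test between lines was made on them.

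Among the 3 transgene lines no member was called by edgeR or by DESeq2. The background was 2.33% of hairpins for Red* against White*, 0.581% for White* against Fab2L and 2.33% for Red* against Fab2L. At an unadjusted p below 0.05 there was 1 member in the first of these, by either tool, and 0 in the other two, where edgeR had 14%, 6.4% and 19.2% of all hairpins. That member in edgeR was mir-960 in Red* against White*, with a log2 fold change of -0.97 (SE 0.30, adjusted p = 0.234). The log2 fold changes ran from -0.97 to 0.70 in Red* against White*, from -0.67 to 0.70 in White* against Fab2L and from -0.57 to 0.03 in Red* against Fab2L. With SEs of 0.29 to 0.70, differences of this size did not pass at this depth, which does not show that the lines are alike. All 3 lines carry the insertion, so the insertion and whatever else separates these lines from w1118 cannot be told apart.

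Of 13 hairpins on the X chromosome known as rich in testis, 5 were tested in heads (mir-972, mir-974, mir-976, mir-982 and mir-984), and 0 were called against w1118 in any of the 3 lines. DESeq2 also called 0 of the 5, and both tools had 0 at an unadjusted p below 0.05. The summed level of the 13 was 8.65 and 8.56 CPM in w1118 and 7.79 to 9.49 CPM over all 8 libraries. Its libraries of w1118 lay inside the range of the others, unlike those of the mir-959 cluster. Of the 104 to 192 counts of the list per head library, mir-982 gave 38 to 82. The list was found in eggs too, at 4.64 to 66.7 CPM from 2 to 18 counts per library, with 1 to 12 counts of mir-982. The median log2 fold changes of the 5 were -0.10 in Fab2L, -0.20 in Red* and -0.15 in White*. mir-983-1 and mir-983-2, near-identical copies of each other, were listed at 0 in all 16 libraries, which for copies depends on how shared reads were counted.

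**Figure D3:**
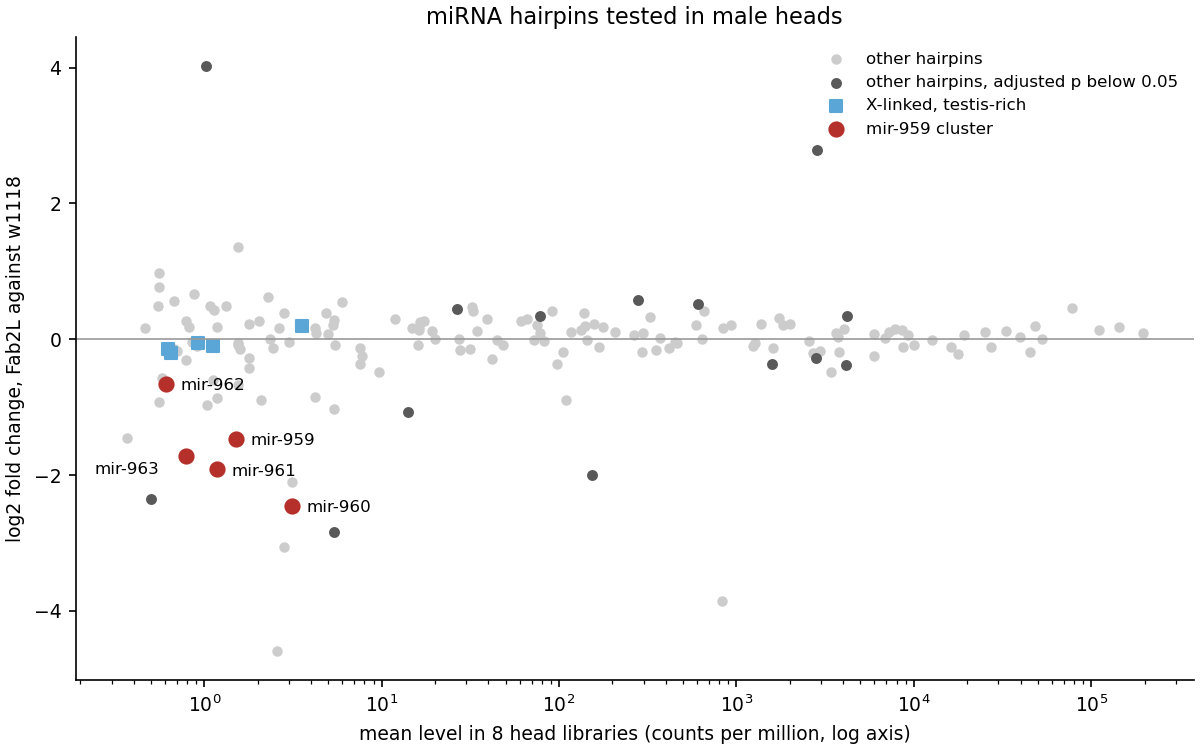
Log2 fold change of Fab2L against w1118 in heads (y axis) by mean level over the 8 head libraries (x axis, CPM, log axis) for the 172 hairpins tested. The 5 tested members of the cluster (red) lie between -0.66 and -2.45 at levels of 0.607 to 3.12 CPM, and the 5 tested X-linked, testis-rich hairpins (blue squares) lie near 0 at similar levels.

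The hairpins whose pattern over the 8 head libraries was nearest to that of the summed cluster were mir-990, mir-311 and mir-4981, all on 2R. Nearness was the root mean square difference of the log2 CPM deviations from each hairpin's own mean, over 147 hairpins with at least 1 CPM. For mir-990 it was 0.261, with means of 352 CPM in w1118 and 82.8, 86.5 and 88.2 CPM in Fab2L, White* and Red*. For mir-311 it was 0.381, with 9.30 CPM in w1118 against 3.29 to 4.62 CPM in the other lines, and for mir-4981 it was 0.533, with 7.11 against 3.01 to 3.68 CPM. The members themselves stood at 0.413 (mir-959), 0.425 (mir-960), 0.554 (mir-963), 0.566 (mir-961), 0.638 (mir-964) and 0.756 (mir-962) from their own sum, so mir-990 and mir-311 were nearer to it than any member. A low count raises this measure.

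In unfertilized eggs the cluster was at the limit of detection. All 8 egg libraries together held 4 counts of it, namely 2 of mir-961 and 1 of mir-962 in Red* replicate 2 and 1 of mir-963 in Fab2L replicate 1. mir-959, mir-960 and mir-964 had 0 counts in every egg library. A count of 0 allows up to 2.63 to 11.1 CPM in 1 egg library, and the lowest of these limits is above the mean level in heads of every member but mir-960. No member passed the filter on low counts in eggs, where 76 hairpins were tested, so the main fit made no line comparison for the cluster there. With no filter 3 members entered, and 0 were called over the 4 lines, where 63 of 170 hairpins were. None was called in any pair of lines either. At 1 or 2 egg counts per member this does not show that the lines are alike.

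Pooling the libraries allows a comparison of the tissues. In heads the cluster had 885 counts in 126 M, or 7.04 CPM, and in eggs 4 in 4.87 M, or 0.822 CPM. Scaled by summed hairpin counts without TMM factors, heads were 8.57 times higher, with an exact interval of 3.33 to 31.5 for counting error. At the level of heads, 34.3 counts would have been found in eggs. On the same scaling mir-960 was at least 4.60-fold higher in heads and mir-959 at least 2.34-fold higher, against the 3-count limit over the 8 egg libraries of 0.616 CPM. These bounds hold for that scaling only. In a fit of all 16 libraries the lowest log2 fold changes under other settings were 1.18 (mir-960) and 0.48 (mir-959), smaller than these bounds. The intervals of mir-961 (ratio 2.71, 0.737 to 22.6), mir-962 (2.79, 0.485 to 112) and mir-963 (3.64, 0.638 to 145) included 1, and mir-964, at 0.334 CPM in heads, was under the limit in eggs.

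By line, w1118 heads were at least 5.24-fold higher than w1118 eggs, where the 2 libraries held 0 counts. White* heads were at least 2.41-fold higher than White* eggs, also with 0 counts. Both bounds are scaled by summed hairpin counts without TMM factors. In a fit of all 16 libraries these factors were 1.44 to 1.59 in heads and 0.275 to 2.49 in eggs, so the bounds depend on the scaling. The ratios of Fab2L (2.44, 0.432 to 97.1) and Red* (2.53, 0.846 to 12.4) had intervals that included 1. In an edgeR fit of all 16 libraries 4 members were tested, and mir-960 was called higher in heads (adjusted p = 0.0138), where 50.9% of the 161 hairpins tested were. With 0 counts in every egg library, mir-960 passed the filter on low counts only through head libraries. Its call is therefore no independent support for a tissue difference. DESeq2 called 0 of the 4 and had 0 at an unadjusted p below 0.05. For a line effect that differs between the tissues, edgeR and DESeq2 each called 0 of 4 members, with 0 at an unadjusted p below 0.05. Over all hairpins edgeR called 65.2% with TMM factors, 28.6% with RLE factors and 41.0% with no factors, and DESeq2 33.5%, so this background depends on the scaling. Egg counts of 0 to 2 per member leave such a difference undetectable at this depth.

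**Figure D4:**
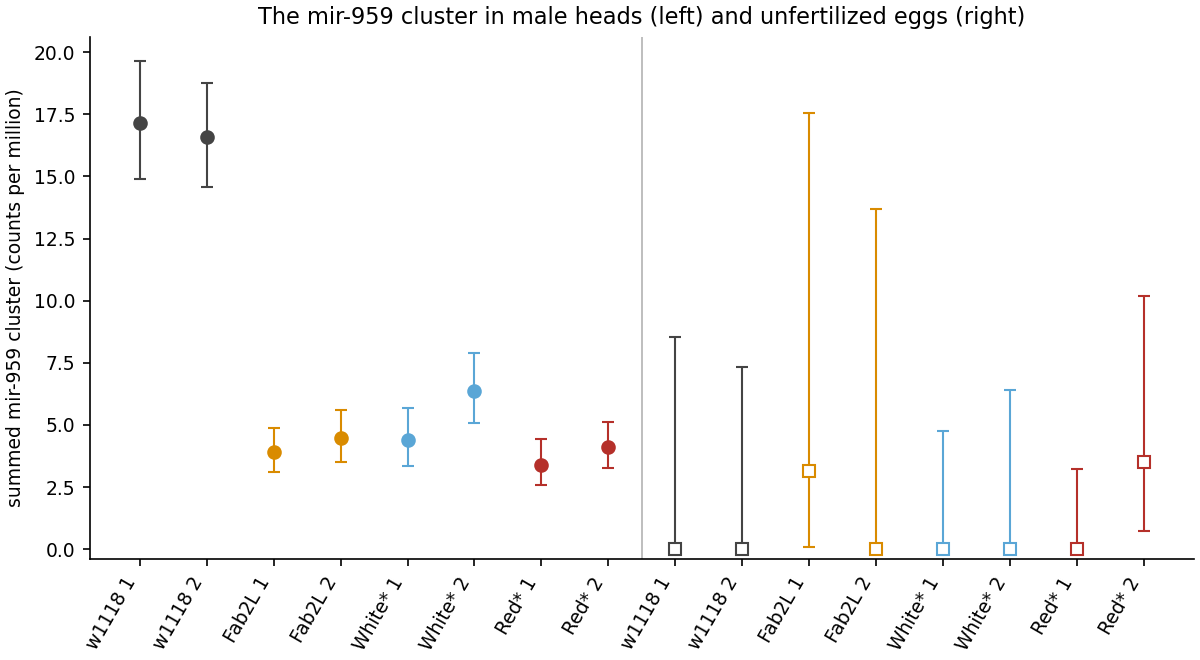
Summed level of the 6 hairpins in the 8 head and 8 egg libraries (y axis, CPM) by line and tissue (x axis), with exact 95% Poisson intervals of the counts. The w1118 heads stand at 17.1 and 16.6 CPM, and 6 of the 8 egg libraries stand at 0 with intervals that reach up to 13.7 CPM.

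DIP-theta, whose span holds the cluster, overlapped between the lines in long RNA from heads. It stood at 4.38 and 5.81 FPKM in w1118, 5.74 and 5.65 FPKM in Fab2L, 6.42 and 5.34 FPKM in White*, and 5.55 and 5.51 FPKM in Red*. The w1118 libraries spanned most of that range, and limma on log2(FPKM + 1) gave a difference of 0.15 in Fab2L (SE 0.13, adjusted p = 0.592), with adjusted p-values of 0.525 in White* and 0.639 in Red*. In eggs DIP-theta was at most 0.0108 FPKM. Within 20 kb of the cluster the other annotated genes are lncRNA:CR44822, at 0 to 0.432 FPKM in heads, lncRNA:CR44821, at 0 in 7 of 8 head libraries, and Cyp6a16, a cytochrome P450 gene. Cyp6a16 stood at 0.0519 and 0.0612 FPKM in w1118 and at 0.154 to 0.357 FPKM in the other lines, all below the filter of 1 FPKM, and was not tested. The long RNA libraries were made from RNA above 200 nt and are no measure of hairpins of 89 to 100 bp. There the 6 hairpin genes stood at 0 to 1.64 FPKM in heads, with mir-961 at 0 throughout, and all 6 were listed at 0 in eggs.

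Since the cluster's transcript is known to cycle, the genes of the circadian clock were read in the long RNA of the same lines. Of 18 listed genes 17 were found, and all 17 were tested. In each of the 3 lines 1 gene was higher and 1 lower than in w1118 by limma, against backgrounds of 3.51% higher and 3.12% lower in Fab2L, 2.57% and 3.1% in White*, and 3.75% and 8.07% in Red*. At an unadjusted p below 0.05 there were 3, 4 and 6 of the 17 in Fab2L, White* and Red*, where 21.3%, 19.4% and 28.7% of all genes tested were under it.

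The gene called lower was to (takeout), a clock-controlled gene of the head fat body tied to feeding. It stood at 358 and 574 FPKM in w1118 and at 20.6 to 35.4 FPKM in the other 6 libraries, with no overlap. Its log2(FPKM + 1) difference was -3.77 in Fab2L (adjusted p = 0.000406), -4.02 in White* (adjusted p = 0.000318) and -3.94 in Red* (adjusted p = 0.000301), each by limma with SE 0.27. The gene called higher was cyc, which encodes the partner of Clk, at 28.3 and 28.3 FPKM in w1118 and 35.1 to 36.9 FPKM in the others. Its limma differences were 0.33 in Fab2L (adjusted p = 0.0359), 0.34 in White* (adjusted p = 0.0331) and 0.33 in Red* (adjusted p = 0.0274), and leaving out any 1 library of a comparison ended the call (adjusted p 0.0790 to 0.176). Among the 3 transgene lines 0 of the 17 were called, with 3, 0 and 1 at an unadjusted p below 0.05 in Red* against White*, White* against Fab2L and Red* against Fab2L, by limma, the one tool used for FPKM. The backgrounds there were 3.87%, 0.117% and 2.25% of genes called, and 23.2%, 8.0% and 19.9% at the unadjusted threshold.

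The 2 w1118 libraries differed in the core clock genes. tim, which encodes the partner of Per, stood at 49.9 FPKM in replicate 1 and 176 FPKM in replicate 2, where the other lines had 38.9 to 55.6 FPKM. per stood at 9.85 and 25.6 FPKM, and vri, a repressor of Clk, at 33.1 and 71.5 FPKM. Clk, the activator of per and tim, was at 10.9 FPKM in replicate 1 and 2.66 FPKM in replicate 2, against 13.3 to 14.4 FPKM in the other lines. Replicate 1 was thus nearer to the other lines in these 4 genes than replicate 2. Without w1118 replicate 1, limma called 7 of the 17 in Fab2L, 8 in White* and 6 in Red*, against 5.09%, 4.33% and 8.32% of all genes. Without replicate 2 it called 1 in each, namely to, against 2.89%, 2.48% and 3.31%. Either fit leaves w1118 with 1 library, assumed to vary like the other lines, and the first restates that replicate 2 stands apart in these genes. The mir-959 cluster was alike in the 2 w1118 small RNA libraries, at 17.1 and 16.6 CPM. The labels do not tie a small RNA library to the long RNA library of the same number, and the part of the clock state in the cluster's level was not tested.

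**Figure D5:**
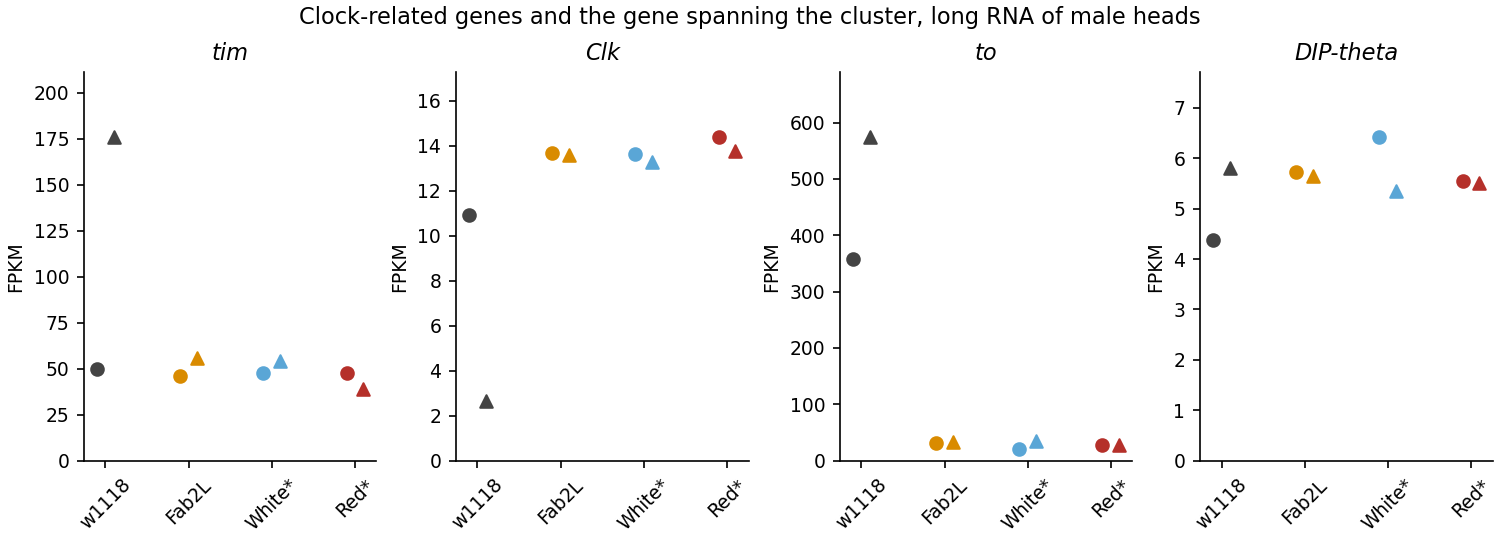
Level in long RNA of heads (y axis, FPKM) of tim, Clk, to and DIP-theta by line (x axis), with a circle for replicate 1 and a triangle for replicate 2. to is high in both w1118 libraries at 358 and 574 FPKM, tim and Clk differ between the 2 w1118 libraries, and DIP-theta overlaps across lines.

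Markers of tissues that may carry the cluster were summed in the same head libraries. Fat body markers (11 of 12 found) summed to 1688 to 1903 FPKM in w1118, 2220 to 2560 in Fab2L, 1708 to 1805 in White* and 1372 to 1738 in Red*, so w1118 lay within the range of the other lines. apolpp and Desat1 made up 77.8 to 90.5% of these sums. Singly, 2 of the 9 that passed the filter of 1 FPKM lay higher in both w1118 libraries than in the other 6, as did 11.0% of all genes tested. Lsp2, a storage protein of the fat body, stood at 51.0 and 69.0 FPKM in w1118 and 11.5 to 24.1 FPKM in the others. It fell in Fab2L (log2 difference -1.40, limma adjusted p = 0.00419), in White* (-1.88, adjusted p = 0.00118) and in Red* (-2.17, adjusted p = 0.000607), and kept these calls whichever library was left out. ppl, at 27.7 and 27.8 FPKM in w1118 and 18.1 to 25.4 FPKM in the others, was called in none of the 3 lines. Of the other markers tested, fit was called lower in Red* (-1.52, limma adjusted p = 0.00718) and White* (-1.23, adjusted p = 0.0185), and Obp99b higher in Fab2L (1.57, adjusted p = 0.0173) and White* (1.84, adjusted p = 0.00954). Leaving out 1 library ended the call of fit in White* (all 4) and those of Obp99b (2 of 4 in each line). The part of the fat body in the cluster's level was not tested.

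Testis markers (14 of 14 found) summed to 38.9 to 43.2 FPKM in w1118, 39.5 to 41.5 in Fab2L, 36.7 to 37.0 in White* and 52.7 to 62.2 in Red*. Of the 14, 10 were below 1 FPKM in every head library and nht was at 0 in all 8, while bol alone stood at 25.2 to 48.6 FPKM. The highest testis sums were in Red*, where bol alone stood at 48.6 and 40.7 FPKM. Singly, Mst87F lay higher in both w1118 libraries (0.573 and 0.553 FPKM) than in the other 6 (0.0970 to 0.484 FPKM). All these values are below the filter of 1 FPKM, and Mst87F was not tested. Of all genes tested, 11.0% lay higher in both w1118 libraries in this way and 9.86% lower. twe lay lower in both w1118 libraries (1.64 and 1.19 FPKM) than in the others (2.64 to 3.44 FPKM). It is not particular to testis here, as it stood at 83.3 to 96.4 FPKM in eggs. The part of testis RNA in the cluster's level was not tested. In such bulk samples fewer cells of a type and less RNA per cell cannot be told apart. Long RNA depth, estimated from the smallest steps of the FPKM values, was 26 to 31 M reads in w1118, 13 to 17 M in Fab2L and White* and 26 to 38 M in Red*.

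No listed DNA change of the derived lines lay near the cluster. The deposited lists of changes specific to Red* or to White* hold 2635 entries, of which 16 are on 2L and 0 are within 20 kb of the cluster. The nearest was a small deletion of the Red* list, 580 kb away. These lists do not compare w1118 with Fab2L, so a change at the cluster between those lines was not tested.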

How the data were processed

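For small RNA the authors deposited, for each library, the number of reads (count) on every miRNA hairpin. Bowtie is named for it per the submitters' processing notes, and how reads shared by several hairpins were counted is not given in the sources used here. Long RNA was deposited by the authors as FPKM per gene, with STAR 2.5, DESeq2 and build dm6 per the submitters' processing notes. Lists of SNPs and small deletions and insertions were deposited too, and only their positions were used.

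Counts were fitted with edgeR 4.0.16 in R 4.3.3 (quasi-likelihood test, TMM factors, filterByExpr with a minimum count of 10, Benjamini-Hochberg adjustment over all hairpins tested), with the 4 lines of a tissue in 1 fit, and called at an adjusted p below 0.05. CPM in the text is scaled by the summed hairpin counts without TMM factors. DESeq2 1.42.0 was an alternative. edgeR on counts cannot be used for FPKM, so long RNA was fitted with limma 3.58.1 on log2(FPKM + 1) for genes above 1 FPKM in at least 2 of the 8 head libraries. This scale understates the change of low genes. Both fits were tested on simulated data. Poisson and binomial intervals are exact, at 95%. Head depth was 12.0 to 20.2 M and egg depth 0.270 to 1.14 M hairpin counts.

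The genes named are the 6 members, the X-linked list, the 3 hairpins nearest in pattern, genes within 20 kb, clock genes and tissue markers. Members and lists were chosen with earlier results of these data known. Values of tim, per, vri and Clk are named for their difference between the w1118 libraries, seen in these data. Lsp2, ppl, fit and Obp99b were named after their values were seen, with alternatives added then. Mst87F and twe were also named after their values were seen, without alternatives. Alternatives were other normalization, no filter, a replicate block, another pseudocount and leaving out each library.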

Additional observations from a re-analysis of the deposited data

How the results depend on the processing

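The fall of mir-960 in heads kept its direction and its call against w1118 in all 3 lines under every alternative run, with log2 fold changes of -2.33 to -2.55 in Fab2L, -1.90 to -2.14 in White* and -2.68 to -3.45 in Red*. The number of members called moved more. Over all 4 lines (2 called) it was 1 with RLE factors, 1 with no factors and 1 to 3 without 1 library, the 3 being without either Red* library. In Fab2L (1 called) it was 2 with no factors, 3 with no filter on low counts, 2 with the replicate block (mir-961 added, adjusted p = 0.0292) and 1 whichever library was left out. In Red* (1 called) it was 3 with no filter, 3 with the replicate block (mir-959 and mir-961 added, adjusted p = 0.0446 and 0.0220) and 1 to 3 without 1 library, the 3 being without Red* replicate 2. In White* (2 called) it was 1 whichever library was left out. The replicate numbers did not pair the libraries: deviations of same-numbered head libraries correlated at -0.36 to 0.137. Between heads and eggs (1 called) it was 0 with DESeq2, 2 with no factors, 0 with the replicate block and 0 to 1 without 1 library. Leaving out 1 head library lowers the median depth from 6.58 to 1.14 M and raises the filter from 1.52 to 8.77 CPM, so fewer members are tested. For clock genes (2 called in each line) the count was 1 with the replicate block in Fab2L and in White*, and 1 to 7, 1 to 8 and 1 to 6 without 1 library in Fab2L, White* and Red*.

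Values that reversed were those of mir-962 in White* against w1118, which ran from -0.19 without w1118 replicate 2 to 0.39 without w1118 replicate 1 and was -0.11 without White* replicate 2, and those of mir-961 (-0.70) and mir-963 (-0.87) in heads against eggs with DESeq2, and of the marker Obp99b in Red* against w1118, from -0.54 without w1118 replicate 1 to 0.14 without w1118 replicate 2; the cause was not tested. Counts were low, with 1 to 9 counts of mir-964 per head library and 0 to 2 counts of any member per egg library. The alternative with another count column was not run, as the tables used here hold 1.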
